A study of Mus musculus with 17 samples.

Results

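Inha KO testes were compared with Inha WT testes at embryonic stage E15.5 by RNA sequencing of whole testes. The comparison holds the 6 libraries titled for this age, 3 Inha KO and 3 Inha WT, of 17 in the series. Genotype was read from the titles because the genotype field of the 3 libraries titled WT also reads KO. The KO mice lack the coding sequence of the mature inhibin alpha subunit in the germline, the WT mice carry it, and the study describes both as littermates from heterozygous parents on a C57/Bl6 background. Testes were freed of the mesonephros, so each library mixes the RNA of Sertoli, Leydig, peritubular, interstitial, vascular, blood and germ cells. Each library is one titled sample, and p-values measure only the spread between these libraries. The same comparison at E13.5 (2 KO and 3 WT libraries) and at PND 0, the day of birth (3 and 3), was used only to show where E15.5 differs.

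Inhibin is made when the alpha subunit encoded by Inha joins an activin beta subunit. It opposes activin by occupying the activin type II receptors, and without the alpha subunit the beta subunits can pair only with each other, as activins, which signal through SMAD2 and SMAD3. In the fetal testis Sertoli cells enclose the germ cells in cords and make anti-Müllerian hormone, while fetal Leydig cells between the cords turn cholesterol into androgens.

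Inha was nearly absent from every KO library, as the titles state. It had 11, 68 and 6 raw counts in KO testes, against 14672, 11927 and 13763 in WT testes. As CPM (counts per 1000000 counts of the library, after TMM scaling), Inha had 0.499, 3.19 and 0.268 CPM in KO testes, against 641, 548 and 624 CPM in WT testes. The genotypes were far apart, and KO replicate 2 was the highest of its group (log2 fold change -8.86 ± 0.44; adjusted p = 1.3e-08; kept whichever E15.5 library was left out). Here and in what follows ± after a log2 fold change of KO over WT is its SE, and p is that of edgeR's quasi-likelihood test, adjusted by Benjamini-Hochberg over all genes tested. Inha lies on chromosome 1 from 75507077 to 75510366 on the plus strand of GRCm38. The beta subunits were not called. Inhbb, which encodes beta B, averaged 288 ± 19.4 CPM in KO testes and 248.9 ± 11.7 CPM in WT testes (SD, n = 3 each), and Inhba, which encodes beta A, averaged 48.7 ± 7.73 CPM in KO testes and 55.3 ± 4.96 CPM in WT testes (SD, n = 3 each). The adjusted p was 0.31 for Inhbb and 0.78 for Inhba.

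One KO library stood apart from the other KO libraries. On the first principal component of log2 CPM in the 6 libraries, which carried 41.3% of their variance, KO replicates 1, 2 and 3 scored -25.4, -47.7 and 11.3, and WT replicates 1, 2 and 3 scored 19.3, 21.4 and 21.1. KO replicate 3 thus lay near the WT libraries on this axis although its Inha level was the lowest of all. Red cell genes were high in KO replicate 2 and WT replicate 2, the E15.5 libraries whose titles carry the same first number, and the liver gene Alb reached 41.9 CPM in WT replicate 1, against at most 2.18 CPM in the other libraries. Total counts ran from 21883488 to 22166752 in KO libraries and from 21891016 to 22042380 in WT libraries, so that 1 CPM stands for about 22 counts.

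Of 18635 genes tested, 83 were called changed in Inha KO testes (0.445%), 58 higher (0.311%) and 25 lower (0.134%), at an adjusted p below 0.05 and at least 1.5-fold. The median log2 fold change of all genes was 0.0026, and 2157 genes had an unadjusted p below 0.05. Most changes were modest: 45 of the 83 were under 2-fold, and 15 had an absolute log2 fold change above 1.5. In all 83 the KO and WT libraries did not overlap, which held for 19.5% of all genes tested. The number called was 39, 43 and 305 without KO replicates 1, 2 and 3, and 46, 30 and 46 without WT replicates 1, 2 and 3. Without KO replicate 3, 247 genes were called lower (1.33%) and 58 higher (0.312%), 1.64% in all, and 74 of the 83 calls were kept. Of the 83, 26 were kept whichever E15.5 library was left out and 24 only without KO replicate 3.

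**Figure D1:**
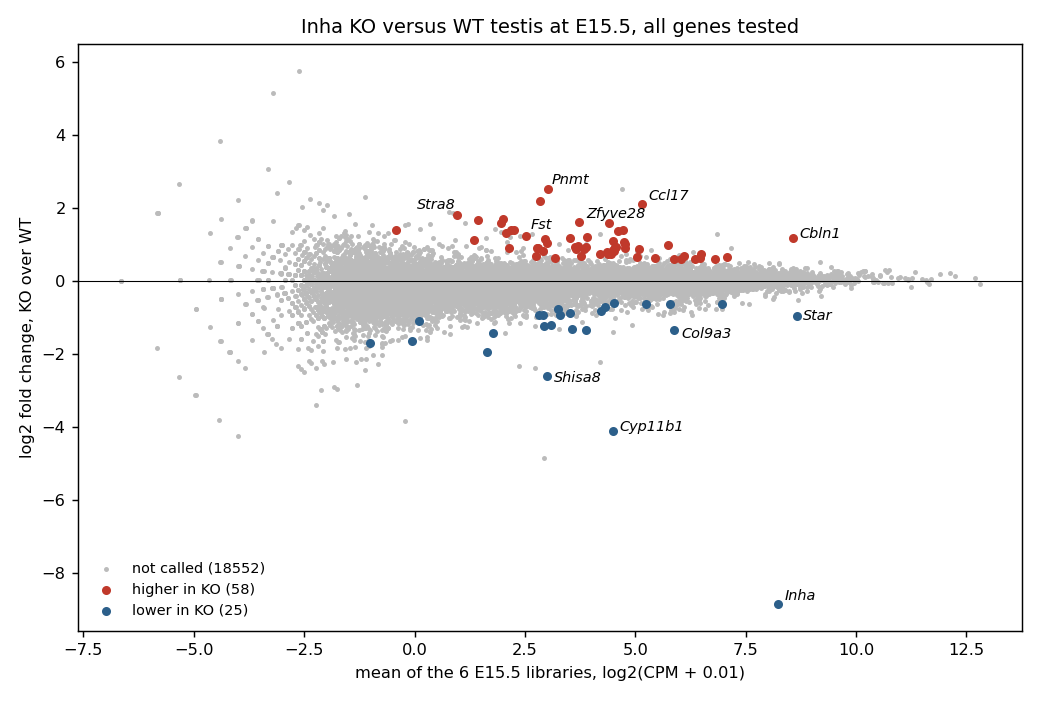
Each point is a gene tested, placed by its mean over the 6 E15.5 libraries (x axis, log2 of CPM plus 0.01) and its log2 fold change of KO over WT (y axis). The 58 genes called higher in KO are red, the 25 called lower are blue and the others grey, with Inha lowest at -8.86 and Cyp11b1 next among the called genes at -4.11.

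Of the activin antagonists, Fst and Fstl3 were higher in KO testes. Fst encodes follistatin, which binds activin and blocks it, and had 8.58, 7.47 and 8.12 CPM in KO testes, against 3.54, 3.31 and 3.54 CPM in WT testes. Every KO library was above every WT library (log2 fold change 1.22 ± 0.20; adjusted p = 0.0072; lost without WT replicate 2, with adjusted p from 0.014 to 0.06 over the omissions). Fstl3 encodes a related activin-binding protein and had 8.40, 8.97 and 9.68 CPM in KO testes, against 4.89, 4.41 and 5.26 CPM in WT testes. Its libraries did not overlap either (log2 fold change 0.89 ± 0.17; adjusted p = 0.025; kept only without KO replicate 3, with adjusted p from 0.037 to 0.16 over the omissions). These were the 2 called of 14 antagonists and feedback genes tested, whose median log2 fold change was 0.13. Smad7, Skil, Bambi and Pmepa1, which respond to or dampen the pathway, were not called, at 0.16, 0.09, -0.08 and 0.12 on the log2 scale. None of 10 activin receptor and SMAD genes was called (median 0.05).

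Promoters of the called genes were searched for short motifs because activin acts through SMAD proteins and steroid genes through SF1. RefSeq windows of 300 bases around the start (250 before it and the rest after) were found for 12987 of the genes tested and 54 of the 83 called. RefSeq and GENCODE starts differed by 0 bases for genes such as Ccl17 and Fshr, but by 12647 for Gm2694 and 26566 for Ptges. The Inha window lies inside the gene, so some windows may not be at the promoter. CAGACA, a form of the SMAD box, was present on either strand in 24.4% of 41 windows of genes called higher, 15.4% of 13 windows of genes called lower and 16.5% of all windows. It contains the complement of the shorter box GTCT, which was in 87.8%, 84.6% and 86.2% of the same sets. The palindrome GTCTAGAC was in no window of a called gene and in 0.239% of all windows, and the SF1-type motif CAAGGTCA in none and 1.12%. At such low shares, finding none in 54 windows shows little. Neither called steroid synthesis gene, Star or Cyp11b1, had a window, so SF1 motifs at them were not examined. The 250 bases upstream of 3 genes called higher, the antagonist Fstl3, the chemokine Ccl17 and the matrix gene Lect1, are shown as examples that each hold 1 match. Other called genes also hold a match, among them Eef2k, Miox and Slc38a5 (higher) and Nt5e (lower). The stretches shown are RefSeq sequence of GRCm38.p6, written 5′ to 3′ on the strand of the gene, with CAGACA or its complement TGTCTG in capitals, and a match describes the letters only. They lie at chr10:79777024-79777273 (plus strand), chr8:94810203-94810452 (plus strand) and chr14:79662184-79662433 (minus strand) in the order named.
Fstl3: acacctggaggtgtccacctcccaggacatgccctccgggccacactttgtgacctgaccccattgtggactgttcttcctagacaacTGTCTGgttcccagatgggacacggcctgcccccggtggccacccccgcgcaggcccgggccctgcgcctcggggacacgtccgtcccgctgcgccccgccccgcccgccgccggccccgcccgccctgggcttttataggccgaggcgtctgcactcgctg
Ccl17: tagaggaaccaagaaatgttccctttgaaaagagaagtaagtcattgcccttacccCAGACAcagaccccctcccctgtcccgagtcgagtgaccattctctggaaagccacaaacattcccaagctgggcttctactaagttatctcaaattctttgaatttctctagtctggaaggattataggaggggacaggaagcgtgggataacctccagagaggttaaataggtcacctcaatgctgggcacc
Lect1: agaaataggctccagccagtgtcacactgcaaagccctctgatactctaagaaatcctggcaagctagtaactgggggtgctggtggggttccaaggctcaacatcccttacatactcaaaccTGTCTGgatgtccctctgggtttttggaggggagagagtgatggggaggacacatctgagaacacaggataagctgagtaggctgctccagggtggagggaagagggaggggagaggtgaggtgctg

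Among other ligands and modulators of the TGF-beta superfamily, 2 genes rose. Gdf15, a ligand that responds to stress, had 15.8, 17.7 and 15.2 CPM in KO testes, against 9.17, 8.32 and 8.93 CPM in WT testes (log2 fold change 0.88 ± 0.19; adjusted p = 0.04; kept only without KO replicate 3, with adjusted p from 0.033 to 0.21 over the omissions). Bmper, a secreted modulator of BMP signalling, had 27.9, 33.3 and 25.4 CPM in KO testes, against 14.2, 16.2 and 18.4 CPM in WT testes (log2 fold change 0.83 ± 0.18; adjusted p = 0.047; kept only without KO replicate 3, with adjusted p from 0.027 to 0.24 over the omissions). In both, the lowest KO library was above the highest WT library. They were 1 of 18 ligands (median 0.03) and 1 of 9 BMP modulators (median 0.12).

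Among called genes the largest fall after Inha was in a steroid enzyme. Cyp11b1 encodes the 11-beta-hydroxylase of corticosteroid synthesis and had 2.32, 2.68 and 2.41 CPM in KO testes, against 36.9, 39.5 and 51.6 CPM in WT testes. The KO libraries were nearly equal, and expression was 17.3-fold lower in KO testes (log2 fold change -4.11 ± 0.52; adjusted p = 8.2e-04; kept whichever E15.5 library was left out). Star, which moves cholesterol into the mitochondrion where steroid synthesis begins, had 247, 304 and 269 CPM in KO testes, against 496, 492 and 615 CPM in WT testes. All 3 KO libraries lay below the lowest WT library (log2 fold change -0.97 ± 0.18; adjusted p = 0.022; kept only without KO replicate 3, with adjusted p from 0.035 to 0.12 over the omissions).

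**Figure D2:**
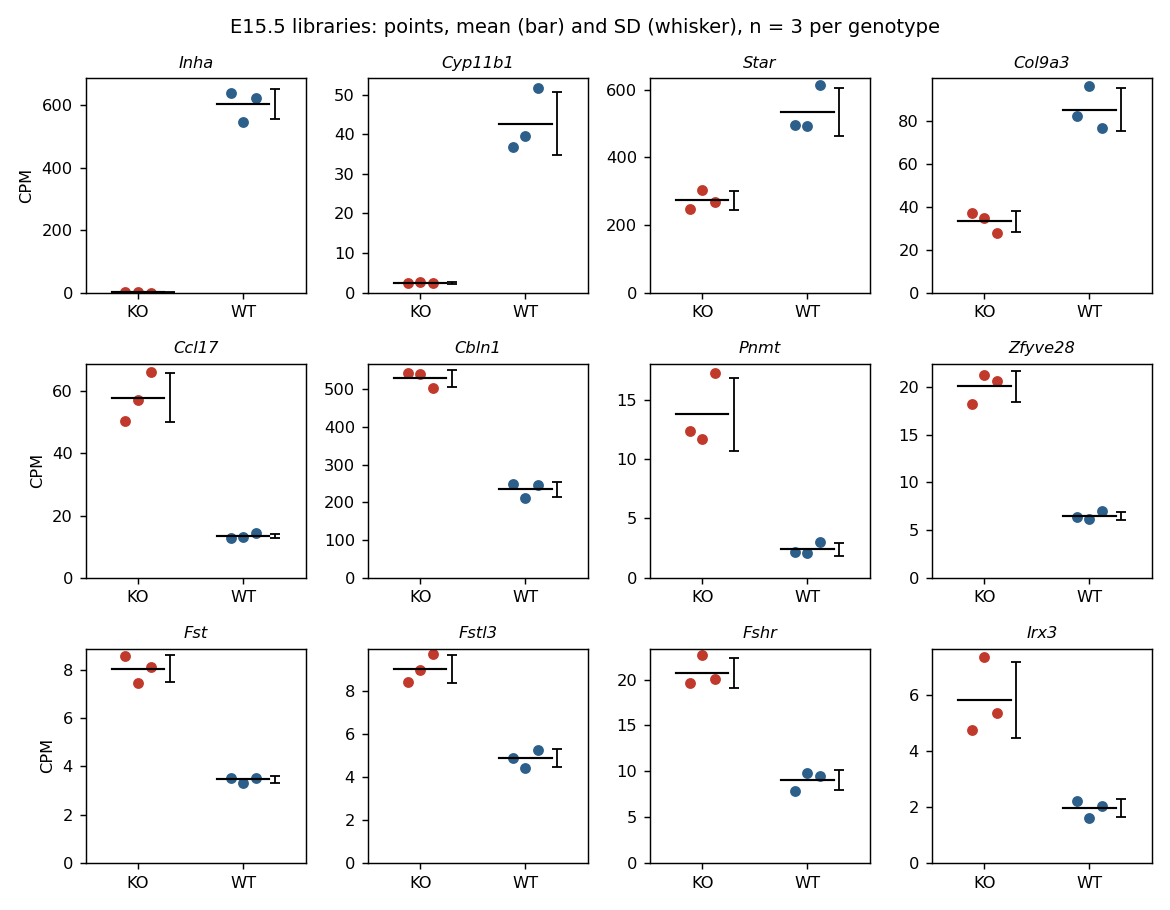
CPM (y axes, starting at 0) of 12 genes in the E15.5 libraries, with KO (red) left of WT (blue), the mean as a bar and the SD as a whisker (n = 3 each). KO and WT points are separate in every panel; Inha is at most 3.19 CPM in KO and at least 548 CPM in WT.

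The other steroid enzymes of the fetal Leydig cell were not called. Cyp11a1, which cleaves the side chain of cholesterol, had 1692, 1912 and 1811 CPM in KO testes, against 1638, 1479.9 and 1502 CPM in WT testes (adjusted p = 0.8). Hsd3b1 averaged 826 ± 5.78 CPM in KO testes and 837 ± 49.2 CPM in WT testes (SD, n = 3 each), and Cyp17a1, which leads to androgens, averaged 2297 ± 158 CPM in KO testes and 2589 ± 72.4 CPM in WT testes (SD, n = 3 each). Neither passed the test (adjusted p = 0.98 for Hsd3b1 and 0.85 for Cyp17a1). The enzymes that reduce androstenedione did not pass either. Hsd17b1 had 172, 192 and 197 CPM in KO testes, against 110.0, 92.8 and 98.7 CPM in WT testes without overlap (log2 fold change 0.90 ± 0.24; adjusted p = 0.12), and Hsd17b3 averaged 91.8 ± 4.02 CPM in KO testes and 76.4 ± 8.53 CPM in WT testes (SD, n = 3 each), with an adjusted p of 0.16. Srd5a1, which makes dihydrotestosterone, and Hsd11b2, which inactivates corticosteroids, had log2 fold changes of 0.05 and 0.01. Fdxr, which feeds electrons to mitochondrial P450 enzymes, had a low adjusted p but was under 1.5-fold (log2 fold change 0.38 ± 0.07; adjusted p = 0.017). Of 20 steroid synthesis genes tested, 2 were called, both lower, and the median was -0.01. The Leydig hormone gene Insl3 and the luteinising hormone receptor gene Lhcgr were not called (log2 fold change 0.25 ± 0.23 and -0.52 ± 0.22; adjusted p = 0.74 and 0.37).

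Genes of lipid supply held 2 calls, both lower. None of 22 cholesterol synthesis genes was called, and 19 had a negative log2 fold change (median -0.18). Hmgcs1, an early enzyme of that pathway, had 471, 547 and 593 CPM in KO testes, against 646, 608 and 648 CPM in WT testes (adjusted p = 0.48), and Dhcr7, the last, had 260.5, 304 and 294 CPM in KO testes, against 337, 324 and 346 CPM in WT testes (adjusted p = 0.55), both without overlap. Apoc1, a lipoprotein component, fell, with 4.99, 5.59 and 4.82 CPM in KO testes, against 12.5, 11.2 and 11.8 CPM in WT testes (log2 fold change -1.20 ± 0.13; adjusted p = 1.4e-04; kept whichever E15.5 library was left out), and was the 1 called of 21 genes of sterol uptake and sensing. Acss2, which makes acetyl-CoA from acetate, had 37.2, 49.4 and 43.0 CPM in KO testes, against 68.6, 65.0 and 69.5 CPM in WT testes (log2 fold change -0.65 ± 0.12; adjusted p = 0.02; kept only without KO replicate 2 and KO replicate 3, with adjusted p from 0.019 to 0.11 over the omissions). It was the 1 called of 15 genes of fatty acid synthesis, of which 14 had a negative log2 fold change (median -0.13).

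Most Sertoli cell genes did not pass the test. Of 28 tested, 1 was higher and 1 lower, and the median was 0.03. Fshr, the receptor for follicle-stimulating hormone, had 19.6, 22.6 and 20.03 CPM in KO testes, against 7.82, 9.84 and 9.48 CPM in WT testes. The KO libraries were all well above the WT libraries (log2 fold change 1.2 ± 0.24; adjusted p = 0.035; kept only without KO replicate 3, with adjusted p from 0.032 to 0.15 over the omissions). Aard, a transcript of Sertoli cells, had 96.4, 92.1 and 105 CPM in KO testes, against 159.8, 155 and 139 CPM in WT testes (log2 fold change -0.63 ± 0.13; adjusted p = 0.035; kept only without KO replicate 3, with adjusted p from 0.026 to 0.17 over the omissions). Amh, the hormone that removes the Müllerian duct, averaged 1587 ± 85.8 CPM in KO testes and 1409.7 ± 21.3 CPM in WT testes (SD, n = 3 each), and Sox9, the transcription factor that defines Sertoli cells, averaged 91.3 ± 5.34 CPM in KO testes and 107 ± 8.71 CPM in WT testes (SD, n = 3 each). Neither was called (adjusted p = 0.42 for Amh and 0.68 for Sox9), nor were the gap junction gene Gja1 (log2 fold change 0.26 ± 0.08; adjusted p = 0.2) and the protease inhibitor gene Serpina5 (log2 fold change 0.79 ± 0.24; adjusted p = 0.17).

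A few genes better known from the ovary were higher. Irx3, a homeobox gene of granulosa cells, had 4.77, 7.38 and 5.36 CPM in KO testes, against 2.23, 1.61 and 2.04 CPM in WT testes (log2 fold change 1.57 ± 0.25; adjusted p = 0.0068; lost without WT replicate 2, with adjusted p from 0.0096 to 0.066 over the omissions). Esr2, an estrogen receptor of granulosa cells, had 8.04, 9.77 and 8.92 CPM in KO testes, against 4.59, 4.18 and 5.62 CPM in WT testes (log2 fold change 0.89 ± 0.19; adjusted p = 0.041; kept only without KO replicate 3, with adjusted p from 0.042 to 0.23 over the omissions). With Fst these were 3 called of 16 granulosa and ovary genes, all higher, while the median of the list was -0.03. The transcription factor Foxl2, which defines granulosa cells, was low in all libraries and just missed the threshold, with 1.36, 1.55 and 1.79 CPM in KO testes, against 0.655, 0.414 and 0.680 CPM in WT testes (log2 fold change 1.41 ± 0.31; adjusted p = 0.052). The WNT pathway genes Wnt4, Rspo1, Axin2 and Lgr5 were not called (log2 fold changes 0.46, -0.05, -0.08 and -0.72).

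Germ cell genes did not separate the genotypes, and KO libraries differed widely among themselves. None of 22 was called, although 20 had a negative log2 fold change and the median was -0.58 (-0.94 without KO replicate 3). Their summed level was 804, 487 and 1223 CPM in KO testes and 1247, 1604 and 1095 CPM in WT testes. The median deviation of the list from the WT mean was -0.46, -1.23 and -0.07 in KO replicates 1, 2 and 3, and 0.00, 0.32 and -0.30 in WT replicates 1, 2 and 3 (log2 scale). KO replicate 2 was lowest and KO replicate 3 lay inside the WT range. Ddx4, an RNA helicase of germ cells, had 83.4, 46.4 and 103 CPM in KO testes, against 109, 149 and 81.4 CPM in WT testes, and the genotypes overlapped (adjusted p = 0.47). In bulk RNA, fewer cells of a type and less RNA per cell cannot be told apart.

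**Figure D3:**
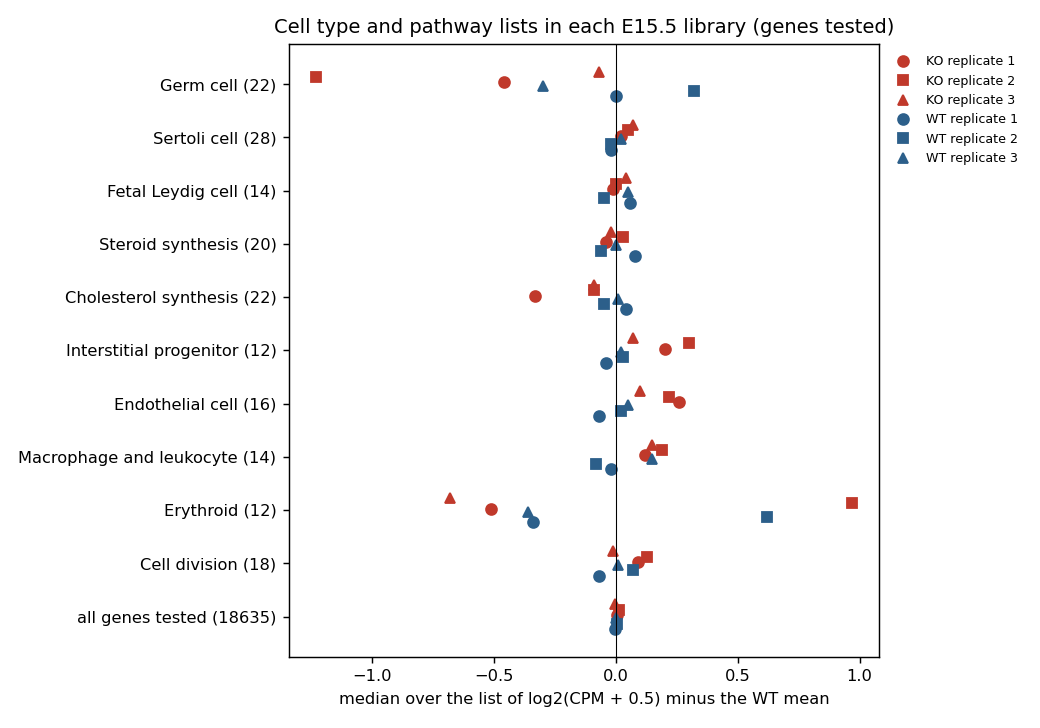
Median over each list of log2(CPM + 0.5) minus the WT mean (x axis) for the E15.5 libraries, with KO in red above WT in blue, 1 marker shape per replicate and the number of genes tested in brackets. The germ cell list runs from -1.23 to -0.07 in KO libraries and the erythroid list is high in replicate 2 of both genotypes, at 0.97 in KO and 0.62 in WT, while the Sertoli and Leydig lists lie near 0.

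Without KO replicate 3, 224 genes were called lower that were not called with all 6 libraries, and their median deviation from the WT mean was -0.97 in KO replicate 1, -1.20 in KO replicate 2 and -0.04 in KO replicate 3. KO replicate 3 was within the WT range in 116 of them. Picking genes by leaving this library out favours such values, here and in the genes named next. They describe the selected genes and are no separate result about KO replicate 3. Several of the 224 act in male germ cells. Spocd1, which takes part in piRNA-directed DNA methylation, had 24.6, 13.2 and 78.0 CPM in KO testes, against 70.0, 69.9 and 75.5 CPM in WT testes. Piwil1, a piRNA-binding protein, had 4.99, 3.38 and 12.1 CPM in KO testes, against 12.3, 12.9 and 10.4 CPM in WT testes. KO replicate 3 was the highest library for Spocd1 and within the WT range for Piwil1 (adjusted p without it 0.044 and 0.048, against 0.53 and 0.47 with it). Of the germ cell list, Dnd1, an RNA-binding protein, and Piwil2, a PIWI protein, were called lower without this library (adjusted p = 0.041 and 0.042, against 0.26 and 0.41 with it).

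Stra8, which retinoic acid induces in germ cells before meiosis, was higher in every KO library. It had 2.59, 3.01 and 3.39 CPM in KO testes, against 0.786, 0.874 and 0.907 CPM in WT testes, which are 57, 64 and 76 counts in KO libraries and 18, 19 and 20 counts in WT libraries. KO replicate 3 was the highest here (log2 fold change 1.80 ± 0.37; adjusted p = 0.035; kept only without KO replicate 3, with adjusted p from 0.04 to 0.16 over the omissions). Of 20 genes of meiosis and the retinoic acid response, Stra8 alone was called (median -0.03). Sycp3, of the meiotic chromosome axis, and Dmc1, a recombinase, were not called (log2 fold change -0.41 ± 0.39 and -0.50 ± 0.17), nor was Cyp26b1, which degrades retinoic acid in the fetal testis (0.18 ± 0.13).

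Pnmt, which makes adrenaline from noradrenaline, had the highest fold change of the genes called higher. It had 12.4, 11.7 and 17.3 CPM in KO testes, against 2.14, 2.07 and 3.04 CPM in WT testes. All KO libraries were far above WT, with replicate 3 the highest of each genotype (5.69-fold; log2 fold change 2.51 ± 0.19; adjusted p = 1.6e-06; kept whichever E15.5 library was left out). Of 10 chromaffin cell genes it alone was called, and the median was -0.33. Th, which starts catecholamine synthesis, was at most 1.06 CPM in any library. Chga, a protein of secretory granules, had 2.59, 3.15 and 3.97 CPM in KO testes, against 7.21, 7.82 and 6.80 CPM in WT testes (log2 fold change -1.17 ± 0.26; adjusted p = 0.052). The summed level of the list, Pnmt included, was 33.1, 35.3 and 41.2 CPM in KO testes and 31.6, 31.0 and 29.0 CPM in WT testes. Pnmt itself made up a large part of the KO sums, and 8 of the 10 genes had a negative log2 fold change. The part of chromaffin cells in the result for Pnmt was not tested.

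Ccl17, a chemokine that draws T cells through CCR4, had 50.4, 57.3 and 66.3 CPM in KO testes, against 12.9, 13.2 and 14.3 CPM in WT testes. KO testes had 4.31-fold more, with no library near the other genotype (log2 fold change 2.11 ± 0.12; adjusted p = 6.0e-08; kept whichever E15.5 library was left out). It was the 1 called of 14 chemokine genes (median 0.22). Ccl22, the other ligand of CCR4, was below 1 CPM in all libraries. None of 14 macrophage and leukocyte genes was called (median 0.09), and their summed level was 124, 132 and 130.2 CPM in KO testes and 125, 103 and 122 CPM in WT testes. Flt3, a receptor of early blood cells, was called higher, with 4.13, 2.73 and 5.44 CPM in KO testes, against 0.874, 1.15 and 1.86 CPM in WT testes (log2 fold change 1.66 ± 0.29; adjusted p = 0.013; lost without KO replicate 1, WT replicate 1 and WT replicate 2, with adjusted p from 0.0081 to 0.1 over the omissions).

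Cbln1 was the most abundant gene called higher. It encodes cerebellin, a secreted organiser of synapses, and had 543, 539 and 502 CPM in KO testes, against 248, 212 and 245 CPM in WT testes. Every KO library was above every WT library (2.25-fold; log2 fold change 1.17 ± 0.07; adjusted p = 6.3e-08; kept whichever E15.5 library was left out). The non-coding gene Gm2694 had 29.8, 32.1 and 33.6 CPM in KO testes, against 10.5, 9.29 and 12.4 CPM in WT testes (log2 fold change 1.57 ± 0.14; adjusted p = 2.1e-05; kept whichever E15.5 library was left out). Gm2694 spans Cbln1 on the opposite strand of chromosome 8, and whether counting used strand is not given in the sources used here, so reads of the pair cannot be told apart. Other called genes also overlap a gene on the opposite strand, so the same limit holds where they overlap. Among them are Cyp11b1, Col9a3, Chdh, Bdh1, Tnnc1, Acss2, Chmp4c and Asic4. Cbln2, a paralog of Cbln1, had 7.81, 7.19 and 9.95 CPM in KO testes, against 4.94, 5.29 and 5.35 CPM in WT testes (log2 fold change 0.68 ± 0.14; adjusted p = 0.038; kept only without KO replicate 2, with adjusted p from 0.043 to 0.15 over the omissions).

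Several genes of transport and metabolism rose with little spread. Zfyve28, which takes part in endosomal sorting of the EGF receptor, had 18.3, 21.3 and 20.7 CPM in KO testes, against 6.38, 6.21 and 6.98 CPM in WT testes (log2 fold change 1.62 ± 0.14; adjusted p = 1.6e-05; kept whichever E15.5 library was left out). Slc38a5, a glutamine transporter, had 67.3, 71.1 and 75.1 CPM in KO testes, against 33.6, 35.7 and 38.9 CPM in WT testes (log2 fold change 0.98 ± 0.10; adjusted p = 8.9e-05; kept whichever E15.5 library was left out). Bdh1, an enzyme of ketone body metabolism, had 30.9, 30.5 and 29.4 CPM in KO testes, against 17.8, 15.4 and 14.97 CPM in WT testes (log2 fold change 0.91 ± 0.09; adjusted p = 8.9e-05; kept whichever E15.5 library was left out). None of these overlapped between genotypes. Hprt, a purine salvage enzyme often used as a reference gene, had 54.7, 51.5 and 52.9 CPM in KO testes, against 34.6, 36.1 and 33.4 CPM in WT testes (1.53-fold; log2 fold change 0.61 ± 0.06; adjusted p = 7.8e-05; kept whichever E15.5 library was left out). Of 13 genes of purine salvage and one-carbon metabolism, Hprt was higher and 2 were lower. Chdh, which oxidises choline, had 7.76, 8.79 and 8.75 CPM in KO testes, against 20.9, 22.8 and 20.1 CPM in WT testes (log2 fold change -1.34 ± 0.18; adjusted p = 0.0012; kept whichever E15.5 library was left out), and Nt5e, which makes adenosine outside the cell, had 31.5, 29.1 and 28.4 CPM in KO testes, against 41.2, 47.5 and 50.7 CPM in WT testes (log2 fold change -0.65 ± 0.12; adjusted p = 0.022; kept only without KO replicate 3 and WT replicate 1, with adjusted p from 0.034 to 0.11 over the omissions).

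Matrix genes best known from cartilage changed in both directions. Acan, the main cartilage proteoglycan, had 30.9, 34.7 and 39.2 CPM in KO testes, against 11.3, 14.9 and 14.7 CPM in WT testes (log2 fold change 1.36 ± 0.20; adjusted p = 0.0037; kept whichever E15.5 library was left out). Lect1, which encodes chondromodulin, an inhibitor of vessel growth, had 15.53, 19.5 and 12.7 CPM in KO testes, against 7.21, 7.45 and 6.35 CPM in WT testes (log2 fold change 1.18 ± 0.19; adjusted p = 0.0068; kept whichever E15.5 library was left out). Col9a3, a chain of collagen IX, had 37.0, 34.7 and 27.7 CPM in KO testes, against 82.2, 96.2 and 76.8 CPM in WT testes (log2 fold change -1.36 ± 0.17; adjusted p = 7.3e-04; kept whichever E15.5 library was left out). The first 2 were higher and the last lower in every KO library. Of 14 genes on the list these 3 were called, and Col2a1, the collagen that defines cartilage, was at most 2.97 CPM in any library. None of 16 endothelial genes was called, though all had a positive log2 fold change (median 0.16).

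Among Schwann cell and neural crest genes, Sox10 and Erbb3 fell. Sox10, a transcription factor of the neural crest, had 7.04, 7.19 and 6.34 CPM in KO testes, against 16.99, 18.6 and 15.4 CPM in WT testes (log2 fold change -1.31 ± 0.21; adjusted p = 0.0072; lost without WT replicate 2, with adjusted p from 0.018 to 0.052 over the omissions). Erbb3, a receptor for neuregulin, had 6.67, 5.64 and 7.90 CPM in KO testes, against 12.5, 16 and 10.4 CPM in WT testes (log2 fold change -0.94 ± 0.20; adjusted p = 0.038; kept only without KO replicate 3 and WT replicate 3, with adjusted p from 0.023 to 0.22 over the omissions). For both genes every KO library was below every WT library. Of 13 genes on the list 3 were called, these among them (median -0.37), and the Schwann cell gene S100b was below 1 CPM in all libraries.

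Further genes fell. Shisa8, an auxiliary protein of glutamate receptors, had 2.18, 2.07 and 2.45 CPM in KO testes, against 15.9, 12.5 and 12.8 CPM in WT testes (log2 fold change -2.62 ± 0.31; adjusted p = 4.6e-04; kept whichever E15.5 library was left out). Fbp1, an enzyme of gluconeogenesis, had 1.14, 1.08 and 1.56 CPM in KO testes, against 6.20, 3.40 and 5.17 CPM in WT testes (log2 fold change -1.96 ± 0.26; adjusted p = 0.0011; kept whichever E15.5 library was left out), and Aldoc, an aldolase, had 13.9, 15.2 and 16.1 CPM in KO testes, against 26.4, 23.8 and 24.3 CPM in WT testes (log2 fold change -0.72 ± 0.13; adjusted p = 0.018; kept only without KO replicate 3, with adjusted p from 0.021 to 0.11 over the omissions). These enzymes were the 2 called of 18 glycolysis genes (median 0.05). Megf10, a receptor for engulfment of dying cells, had 4.04, 4.46 and 5.27 CPM in KO testes, against 8.82, 10.7 and 12.8 CPM in WT testes (log2 fold change -1.23 ± 0.18; adjusted p = 0.0037; kept whichever E15.5 library was left out). Pla2g1b, a secreted phospholipase, had 4.68, 4.98 and 4.86 CPM in KO testes, against 8.65, 9.11 and 10.1 CPM in WT testes (log2 fold change -0.94 ± 0.17; adjusted p = 0.017; kept only without KO replicate 3 and WT replicate 1, with adjusted p from 0.024 to 0.08 over the omissions) and was the 1 called of 8 of its family. Chmp4c, an ESCRT protein of membrane scission, had 5.402, 4.42 and 5.71 CPM in KO testes, against 8.999, 10.1 and 10.7 CPM in WT testes (log2 fold change -0.94 ± 0.17; adjusted p = 0.017; kept only without KO replicate 3 and WT replicate 1, with adjusted p from 0.017 to 0.11 over the omissions). In each, all KO libraries were below all WT libraries.

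The remaining large rises were in genes of no list described so far, and Sel1l3, which the study names, rose less. Pex5l, a regulator of HCN channels, had 12.5, 12.4 and 10.5 CPM in KO testes, against 3.28, 2.21 and 2.31 CPM in WT testes (log2 fold change 2.18 ± 0.39; adjusted p = 0.015; kept only without KO replicate 3 and WT replicate 1, with adjusted p from 0.015 to 0.11 over the omissions). Tnnc1, a troponin of slow and cardiac muscle, had 5.54, 6.06 and 6.25 CPM in KO testes, against 2.49, 2.48 and 2.22 CPM in WT testes (log2 fold change 1.31 ± 0.18; adjusted p = 0.0017; kept whichever E15.5 library was left out). Kcne1, a potassium channel subunit, had 5.63, 7.09 and 6.87 CPM in KO testes, against 2.36, 3.22 and 1.86 CPM in WT testes (log2 fold change 1.40 ± 0.30; adjusted p = 0.042; kept only without KO replicate 3, with adjusted p from 0.046 to 0.17 over the omissions). The WT range was below the KO range in all 3. Prrt3 had 5.54, 7.52 and 5.399 CPM in KO testes, against 1.88, 1.33 and 2.49 CPM in WT testes (log2 fold change 1.69 ± 0.36; adjusted p = 0.041; kept only without KO replicate 3, with adjusted p from 0.031 to 0.23 over the omissions), and Mrap2, an accessory protein of melanocortin receptors, had 7.63, 8.08 and 5.04 CPM in KO testes, against 2.58, 3.17 and 2.09 CPM in WT testes (log2 fold change 1.40 ± 0.29; adjusted p = 0.04; kept only without KO replicate 3, with adjusted p from 0.016 to 0.18 over the omissions). Rps15a-ps6 had 45.4, 26.8 and 42.8 CPM in KO testes, against 9.83, 11.3 and 23.2 CPM in WT testes (log2 fold change 1.38 ± 0.26; adjusted p = 0.018; lost without KO replicate 1, WT replicate 1 and WT replicate 2, with adjusted p from 0.00051 to 0.13 over the omissions), but it is a processed pseudogene whose reads may belong to its parent gene, so this value is uncertain. Sel1l3 had 163, 161 and 170.2 CPM in KO testes, against 97.0, 107 and 113 CPM in WT testes (log2 fold change 0.64 ± 0.10; adjusted p = 0.0055; lost without WT replicate 1 through the fold threshold, with adjusted p from 0.014 to 0.038 over the omissions).

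Lists for other cells and processes held no call. These were interstitial progenitors (12 genes, median 0.18), peritubular myoid cells (8, 0.06), erythroid cells (12, 0.16), mesonephros (11, -0.08), cell division (18, 0.05), apoptosis (16, 0.03), immediate early and heat shock genes (15, 0.10) and imprinted genes (15, 0.04). Acta2, the smooth muscle actin of peritubular cells, averaged 548 ± 17.3 CPM in KO testes and 510.0 ± 26.6 CPM in WT testes (SD, n = 3 each). In the adrenal cortex list, Cyp11b1 fell and Mrap2 rose of 10, while Mc2r, the receptor for adrenocorticotropic hormone, was at 0.04 ± 0.13 on the log2 scale and Cyp21a1, an adrenal enzyme, overlapped between genotypes. Of the 83 called genes, 29 were on a list and 54 on none.

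The changes at E15.5 were in part those of the other ages. Of the 25 lower genes, 19 were among the 435 called lower at E13.5 (2.33% of genes tested) and 9 among the 276 called lower at PND 0 (1.48%). Of the 58 higher genes, 14 were among the 99 called higher at E13.5 (0.531%) and 14 among the 84 called higher at PND 0 (0.451%), while Sct and Slc45a3 were called lower at E13.5. The effect of the genotype at E15.5 differed from that at E13.5 for 320 genes (1.72% of those tested), 23 of them among the 83, and from that at PND 0 for 4 genes (0.0215%; 2073 at an unadjusted p below 0.05), 3 of them among the 83. The 320 fell to 162 and 143 without E13.5 KO replicates 1 and 2, 212 without E13.5 WT replicate 1 and 206 without E15.5 WT replicate 2. The 4 became 395 without PND 0 KO replicate 1 and 2 without any one of E15.5 KO replicate 1, E15.5 WT replicates 1 and 2, PND 0 KO replicates 2 and 3 and PND 0 WT replicate 1, and DESeq2 gave 111.

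Several steroid genes differed between E13.5 and E15.5. At E13.5 Star had a log2 fold change of -4.15 ± 0.26, which was -0.97 ± 0.18 at E15.5 and -0.54 ± 0.19 in newborn testes, and in the same order of ages Cyp11a1 was at -5.32 ± 0.38, 0.23 ± 0.26 and -0.72 ± 0.26. Both differed between E13.5 and E15.5 (adjusted p of the difference = 1.5e-05 for Star and 2.1e-06 for Cyp11a1). Cyp11b1 was lower at every age, at -7.58 ± 1.07, -4.11 ± 0.52 and -4.13 ± 0.58, and its difference between E13.5 and E15.5 did not pass (adjusted p = 0.43). Insl3 and Lhcgr differed as the enzymes did (by 4.21 ± 0.41 and 3.73 ± 0.39, E15.5 minus E13.5; adjusted p = 1.6e-05 and 3.5e-05).

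Ccl17 had a smaller rise with age, with log2 fold changes of 3.35 ± 0.16, 2.11 ± 0.12 and 0.70 ± 0.11 from the youngest age to the oldest, and both steps passed (adjusted p of the difference = 0.0033 and 0.0018). Cbln1 rose most at E15.5, at 0.49 ± 0.08, 1.17 ± 0.07 and 0.11 ± 0.07 over the same ages (adjusted p of the difference = 0.0015 and 1.2e-04). Zfyve28 was at 0.16 ± 0.17, 1.62 ± 0.14 and 0.47 ± 0.13, and differed from E13.5 (adjusted p = 0.0017) but not by this test from PND 0 (adjusted p = 0.057). Sct, which encodes secretin, changed direction, at -1.69 ± 0.21, 0.91 ± 0.17 and 0.26 ± 0.17 (adjusted p of the first step = 3.3e-05), and so did the sugar transporter gene Slc45a3, at -2.89 ± 0.17, 0.59 ± 0.12 and -0.21 ± 0.12 (adjusted p = 8.2e-08). The E15.5 call of Sct was kept only without KO replicate 3, with adjusted p from 0.026 to 0.11 over the omissions, and that of Slc45a3 was kept only without KO replicate 3, with adjusted p from 0.017 to 0.14 over the omissions.

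**Figure D4:**
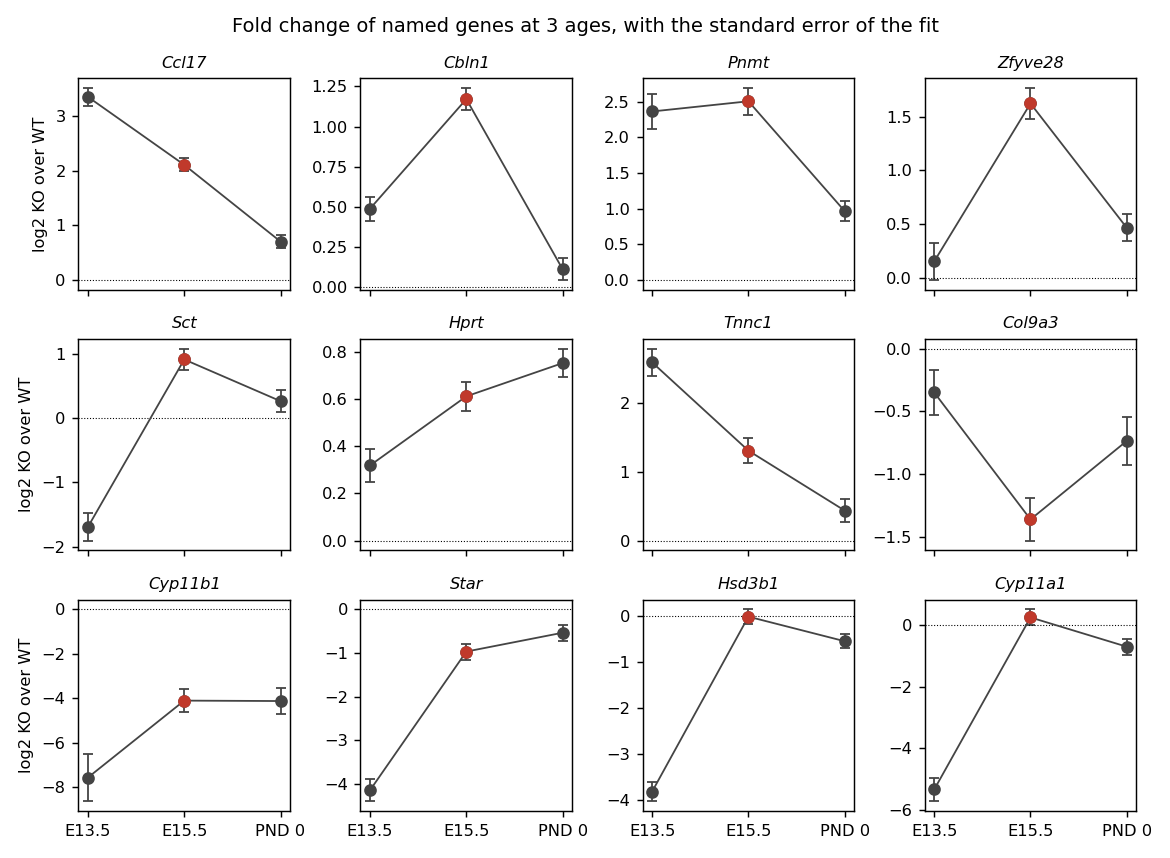
Log2 fold change of KO over WT (y axes, which differ between panels) by age, from E13.5 through E15.5 to PND 0, for 12 genes, with the SE of the fit as bars and E15.5 in red. Star, Hsd3b1 and Cyp11a1 were far below WT at E13.5 (-4.15, -3.81 and -5.32) and nearer to WT at E15.5 (-0.97, -0.02 and 0.23).

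Genes beside Inha were examined because the altered allele lies among them. Within 1 Mb of the start of Inha, 2 of 40 genes tested were called (5%, Inha included), and within 5 Mb 2 of 88 (2.27%). The other was Asic4, an ion channel subunit gene whose start lies at -56.64 kb from that of Inha, with 17.3, 21.1 and 19.8 CPM in KO testes, against 11.1, 7.96 and 11.7 CPM in WT testes (log2 fold change 0.92 ± 0.15; adjusted p = 0.0074; lost without WT replicate 2, with adjusted p from 0.015 to 0.052 over the omissions). Obsl1, a cytoskeletal adaptor gene next to Inha, had 357, 359 and 304 CPM in KO testes, against 486, 467 and 504 CPM in WT testes, with an adjusted p of 0.021 but under 1.5-fold. At E13.5 and PND 0 its fall was beyond 1.5-fold (log2 fold change -0.67 and -1.10, adjusted p = 0.0014 and 3.2e-05). Gm15181 had 9, 8 and 3 counts in KO testes and 0 in each WT library, and was not called (adjusted p = 0.1). It was higher at the other ages (adjusted p = 0.019 at E13.5 and 0.045 at PND 0). Within 5 Mb, Wdfy1 was lower at E13.5 and PND 0 (adjusted p = 0.0088 and 0.033) but not called at E15.5 (log2 fold change -1.41, adjusted p = 0.08). Within 1 Mb the genes that had counts in WT and were not called, Obsl1 among them, had log2 fold changes from -0.64 to 0.63.

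**Figure D5:**
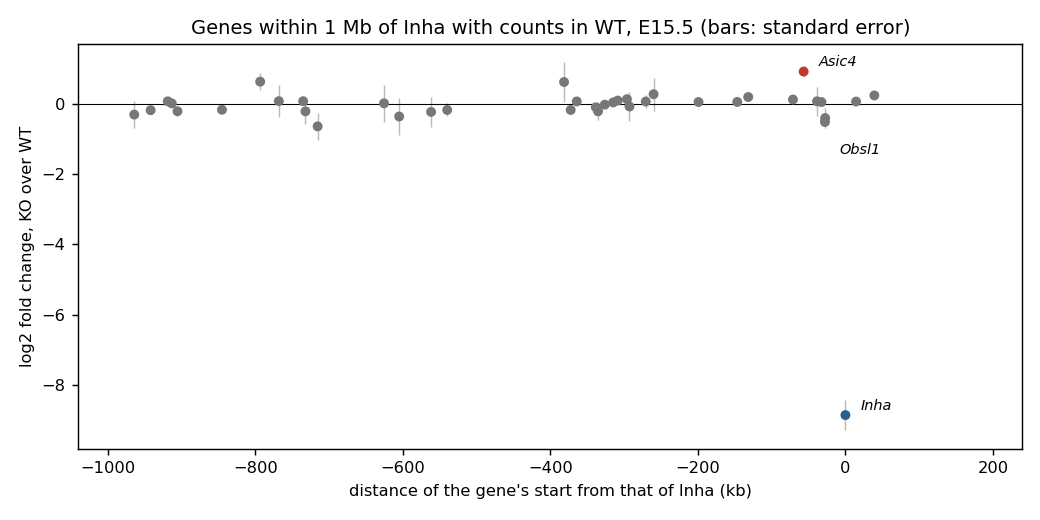
Log2 fold change of KO over WT at E15.5 (y axis, SE as bars) by the distance of each gene's start from that of Inha (x axis, kb) for the 39 genes within 1 Mb with counts in WT. Inha (blue, -8.86) is far below the rest, Asic4 (red, 0.92) is called higher, and the genes in grey lie between -0.64 and 0.63.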

How the data were processed

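RNA of 17 whole testes was sequenced as paired reads on the DNBSEQ-G400. According to the study's methods, the deposited file holds raw counts that featureCounts gave for each gene from STAR alignments to GRCm38, made after SOAPnuke had removed poor reads. Whether strand was used in counting is not given in the sources used here. There are 19110 genes in the table, of which 24 had names turned into dates and were restored by identifier, and positions were taken from GENCODE M21.

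With TMM scaling, the quasi-likelihood test of edgeR 4.0.16 (R 4.3.3) was fitted in one model of 6 groups and 17 libraries, after edgeR's filter removed 475 genes. P-values were adjusted over 18635 genes by Benjamini and Hochberg, and a change was called at an adjusted p below 0.05 and 1.5-fold. The study itself used limma voom, and states its fold threshold in more than one way. Differences between ages were tested as interactions. The test was checked on simulated data for this comparison, where 31 of 67 genes changed by 1.5-fold, 60 of 67 by 2-fold and 65 of 66 by 4-fold were called, with 7 false calls among 163.

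Results that rest on certain genes are not reported here. The members and lists were chosen with earlier results of these data known. Genes described in full are Inha, the 12 largest changes in each direction at 5 CPM or more without overlap, called members of the lists and transcripts the study names, and others were chosen after their values were seen. Alternatives were DESeq2 1.42.0, limma voom 3.58.1, other scalings, filters and thresholds, E15.5 libraries alone each library left out and, added after the data were seen, a block on the first number of the titles.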

Additional observations from a re-analysis of the deposited data

Results flagged for a closer look

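For the following 33 genes, each called at E15.5 or named in the results, the effect of the Inha genotype at E15.5 differed from that at E13.5 by the interaction test of edgeR. Each value is the log2 fold change at E15.5 minus that at E13.5, with the adjusted p over all genes tested. A difference above 0 can be a smaller fall at E15.5 as well as a rise. Chdh and Aldoc, for example, were lower in KO at E15.5 (log2 fold change -1.34 and -0.72). Zfyve28 and Sct were higher (1.62 and 0.91). Among genes of steroid synthesis and the Leydig cell the difference was 5.55 for Cyp11a1, 4.30 for Cyp17a1, 4.21 for Insl3, 3.79 for Hsd3b1, 3.73 for Lhcgr, 3.18 for Star, 1.35 for Mc2r, 1.10 for Fdxr and 0.48 for Hsd17b3 (adjusted p from 4.8e-07 to 0.045). Cholesterol synthesis genes differed by 1.59 for Dhcr7 and 1.02 for Hmgcs1 (adjusted p = 5.3e-04 and 0.0076).

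Other genes with a difference above 0 were 1.39 for Aldoc, 1.38 for Chdh, 1.5 for Hdc, 1.41 for Inhba, 1.70 for Kcng2, 1.48 for Nckap5, 1.83 for Pla2g1b, 2.60 for Sct, 3.48 for Slc45a3 and 1.46 for Zfyve28 (adjusted p from 8.2e-08 to 0.032). Smaller ones were 1.18 for 4930550L24Rik, 0.84 for Adamtsl2, 0.93 for Apoc1, 0.63 for Bdh1, 0.68 for Cbln1, 0.71 for Shtn1, 0.77 for Slc38a5, 0.75 for Stambpl1 and 1.02 for Steap3 (adjusted p from 0.0015 to 0.049). The difference was below 0 for the chemokine gene and 2 others, at -1.25 for Ccl17, -1.01 for Col9a3 and -1.28 for Tnnc1 (adjusted p from 0.0033 to 0.044).

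From E15.5 to PND 0 the effect differed for Cbln1 by 1.06, Ccl17 by 1.41 and Pnmt by 1.54 (log2 fold change at E15.5 minus that at PND 0; adjusted p = 1.2e-04, 0.0018 and 0.033). The E13.5 group has 2 KO libraries, and age and the collection of each age cannot be told apart.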

How the results depend on the processing

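The number of genes called changed at E15.5 was 83 in edgeR and ran from 79 to 87 with RLE scaling, library totals, no filter, a filter at 1 CPM in 3 libraries, robust dispersions or limma voom. DESeq2 called 162, 79 of them lower, and the E15.5 libraries alone gave 113, 38 of them lower. A test against 1.5-fold (glmTreat) left 11 genes, 5 higher and 6 lower, and an absolute log2 fold change above 1.5 left 15, 9 higher and 6 lower. The cause of these differences was not tested. With each E15.5 library left out in turn the count ran from 30 to 305, with 19 to 58 higher and 10 to 247 lower. The genes whose effect differed from E13.5 numbered 514 with DESeq2 and 143 to 422 over the left-out libraries, and those that differed from PND 0 numbered 111 with DESeq2, 2 with limma voom and 2 to 395 over the left-out libraries. The shorter box GTCT was in 87.8% of windows of genes called higher and 86.2% of all windows, against 24.4% and 16.5% for CAGACA. Of 1158 values of called genes under the alternatives, 0 changed sign and 282 no longer passed, and of 599 values of other genes described 31 changed sign. Replicate numbers follow accession order and pair nothing, but titles carry numbers whose meaning the labels do not give, and the genotypes share 2 of 13, 1 of them at E15.5. With the first title number as a replicate block in limma voom, chosen after the data were seen, 177 genes were called, 87 higher and 90 lower (estimated correlation 0.329), against 86 in limma voom without it. The libraries of the shared number at E15.5 deviated from their group means with a correlation of 0.09 across genes, and those at PND 0 with 0.14 and 0.17. In simulated data 31 of 67 genes changed by 1.5-fold were called. A call itself needs an estimate of at least 1.5-fold, so this share reflects the cutoff as well as depth and number of libraries. Smaller changes are mostly kept out by the cutoff and may be missed. The simulation changed only genes above an expression floor and drew libraries independently, so none stood apart as KO replicate 3 did.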
